A study of Mus musculus with 4 samples.

Results

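The TRIM (tripartite motif) family genes were examined in RNA-seq libraries of dendritic cells (DCs) and CD3+ T cells taken from MC38 tumours, a mouse colon carcinoma model. Members were the genes whose symbol is Trim followed by a number and optional lower-case letters, and 39 of the 68 such genes had 20 or more read counts in at least 1 of 4 libraries. These 39 stand among 11987 genes that reach the same minimum, of 21959 listed. The other 29 TRIM genes stayed under 20 counts in every library, and 21 of them were at 0 throughout. At the edge of the rule, Trim71 and Trim62 were just inside with a highest count of 20 and 25, and Trim7 and Trim69 just outside with 16 and 12.

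The 4 groups were DCs from tumours of mice given X-Ray+O-IMDQ, DCs from tumours of mice given PBS, CD3+ T cells from X-Ray+O-IMDQ mice and CD3+ T cells from PBS mice. The series calls X-Ray+O-IMDQ a radiotherapy-activated prodrug treatment, and "treated" below means that combination, with no group given X-ray or O-IMDQ alone among the samples used here. All mice bore MC38 tumours, and the cells come from 72 h after a second dosing. Each group has 1 library that the labels tie to a column of the tables. For PBS this tie is in doubt: the titles call both PBS samples rep2, while the read names in their descriptions carry the number 1, which was followed. The tables also hold 1 more PBS-type column set per cell type, numbered 2, which was not used here, so every PBS value below rests on the read names. The sources used here give no mouse strain, age, number of mice pooled or markers for isolating the DCs. With 1 library used per group no replicate error can be given, so every ratio compares 2 libraries and no p-value is given. In such bulk libraries, fewer cells of a type and less RNA per cell cannot be told apart.

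Most TRIM proteins carry a RING domain, a B-box and a coiled coil, and act as ubiquitin ligases that attach ubiquitin to other proteins. A large share of them work in innate immunity: TRIM25 modifies the RNA sensor RIG-I, TRIM21 is a cytosolic antibody receptor, and human TRIM5 binds retroviral capsids. Many are themselves induced by interferon, while others, such as TRIM28 with its PHD finger and bromodomain, silence genes and retroelements on chromatin. Mice carry an expanded block of Trim5, Trim12, Trim30 and Trim34 copies next to each other on chromosome 7.

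The libraries held 14056428 counts for treated DCs, 23797357 for PBS DCs, 18463944 for treated T cells and 18649824 for PBS T cells. The limit behind a 0 is 3 counts, or in CPM (counts scaled to library total) 0.213 for treated DCs, 0.126 for PBS DCs, 0.162 for treated T cells and 0.161 for PBS T cells. The T cell libraries carried all 7 T cell markers present in the tables, of 9 listed, with summed levels of 11026 CPM in treated T cells and 10350 CPM in PBS T cells, against 77.6 CPM in treated DCs and 92.1 CPM in PBS DCs, where Cd3e and Cd247 were at 0. The DC markers summed to 8226 CPM in treated DCs and 60848 CPM in PBS DCs, mostly H2-Ab1 and Cd74. Of the 10 DC markers, 3 were called higher in treated DCs, 5 lower and 2 neither. The DC-defining genes Zbtb46 and Flt3 had only 57 and 69 counts in treated DCs and 9 and 16 counts in PBS DCs. PBS T cells had 120 and 24 counts of these genes, and treated T cells had 0 of each. The third called higher, Clec9a, had 952 counts in treated DCs and 154 in PBS DCs. Called lower were H2-Ab1, Cd74, Cd209a (329 counts in treated DCs and 9441 in PBS DCs), Ccr7 (1382 and 8296) and Batf3 (0 and 479). Macrophage markers summed to 1444 CPM in treated DCs and 5858 CPM in PBS DCs, 4 of 8 being called lower and 0 higher. The sums hide single markers that moved apart. Of the T cell markers in DCs, Cd2, Lck and Cd3g had 0, 0 and 1 counts in treated DCs and 574, 607 and 576 in PBS DCs, while Cd3d had 812 counts in treated DCs and 434 in PBS DCs, and Cd5 had 278 and 1. Neutrophil markers summed to 91.7 CPM in treated DCs and 22.1 CPM in PBS DCs, with 2 of 3 measured called higher and 1 lower. S100a8 had 1009 counts in treated DCs and 90 in PBS DCs, and Cxcr2 had 246 and 0. Csf3r, called lower, had 34 and 436 counts, and S100a9 and Ly6g were at 0 in both. NK markers summed to 388 CPM in treated DCs and 229 CPM in PBS DCs, with Klrd1 and Eomes called higher and Ncr1 at 0 in both. Fibroblast markers summed to 160 CPM in treated DCs and 123 CPM in PBS DCs, with Col1a1, Col1a2 and Col3a1 called higher, Dcn lower and Pdgfra at 0 in both. Of 4 monocyte markers 1 was called higher in treated DCs, Plac8 with 4901 counts in treated DCs and 1601 in PBS DCs, and 0 lower. The 1 B cell marker measured, Cd79b, was called lower, with 177 and 986 counts. Of 2 MC38 epithelial markers measured, Cdh1 was called higher (776 and 662 counts) and Epcam lower (0 and 219). Cytosolic ribosomal protein genes took 9.59% of counts in treated DCs and 3.81% in PBS DCs, and 6.03% in treated T cells and 8.83% in PBS T cells. Mitochondrial genes took 1.2% of counts in treated DCs and 0.391% in PBS DCs, and 0.484% in treated T cells and 0.603% in PBS T cells. The part of these shifts in the TRIM values was not tested.

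Levels are the deposited FPKM, in which counts are divided by gene length and library total, so that genes can be compared. Trim28, the corepressor recruited by KRAB zinc-finger proteins, was among the 4 highest TRIM genes in every library. It had 18.1 FPKM in treated DCs and 5.81 FPKM in PBS DCs, and 18.2 FPKM in treated T cells and 11.6 FPKM in PBS T cells. Trim30a, a mouse TRIM protein known to restrain Toll-like receptor signalling, was first in both treated T cells (35.4 FPKM) and PBS DCs (6.54 FPKM), and among the 3 highest in treated DCs (14.0 FPKM) and PBS T cells (12.6 FPKM). The 8 highest in treated DCs were Trim28, Trim25, Trim30a, Trim11, Trim30d, Trim12a, Trim39 and Trim44. In PBS DCs they were Trim30a, Trim59, Trim28, Trim25, Trim35, Trim27, Trim8 and Trim12a. In treated T cells they were Trim30a, Trim28, Trim27, Trim12c, Trim12a, Trim35, Trim26 and Trim11, and in PBS T cells Trim13, Trim27, Trim30a, Trim28, Trim12c, Trim35, Trim12a and Trim26. Trim13, an ER membrane protein, led in PBS T cells with 14.5 FPKM, had 5.42 FPKM in treated T cells and was at 0 counts in both DC libraries.

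The 39 genes together took 698 CPM in treated DCs and 265 CPM in PBS DCs, and 938 CPM in treated T cells and 715 CPM in PBS T cells. Of the 39, 24 reached 20 counts in treated DCs and 21 in PBS DCs, against 30 in treated T cells and 36 in PBS T cells. In each DC library 12 of the 39 were at 0 counts, against 6 in treated T cells and 1 in PBS T cells, the 1 being Trim30b. These are 30.8% in each DC library, 15.4% in treated T cells and 2.56% in PBS T cells. Of the 11987 genes with 20 counts in any library, 23.6% were at 0 in treated DCs and 13.1% in PBS DCs. In T cells 13.4% of them were at 0 with treatment and 6.97% with PBS.

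**Figure D1:**
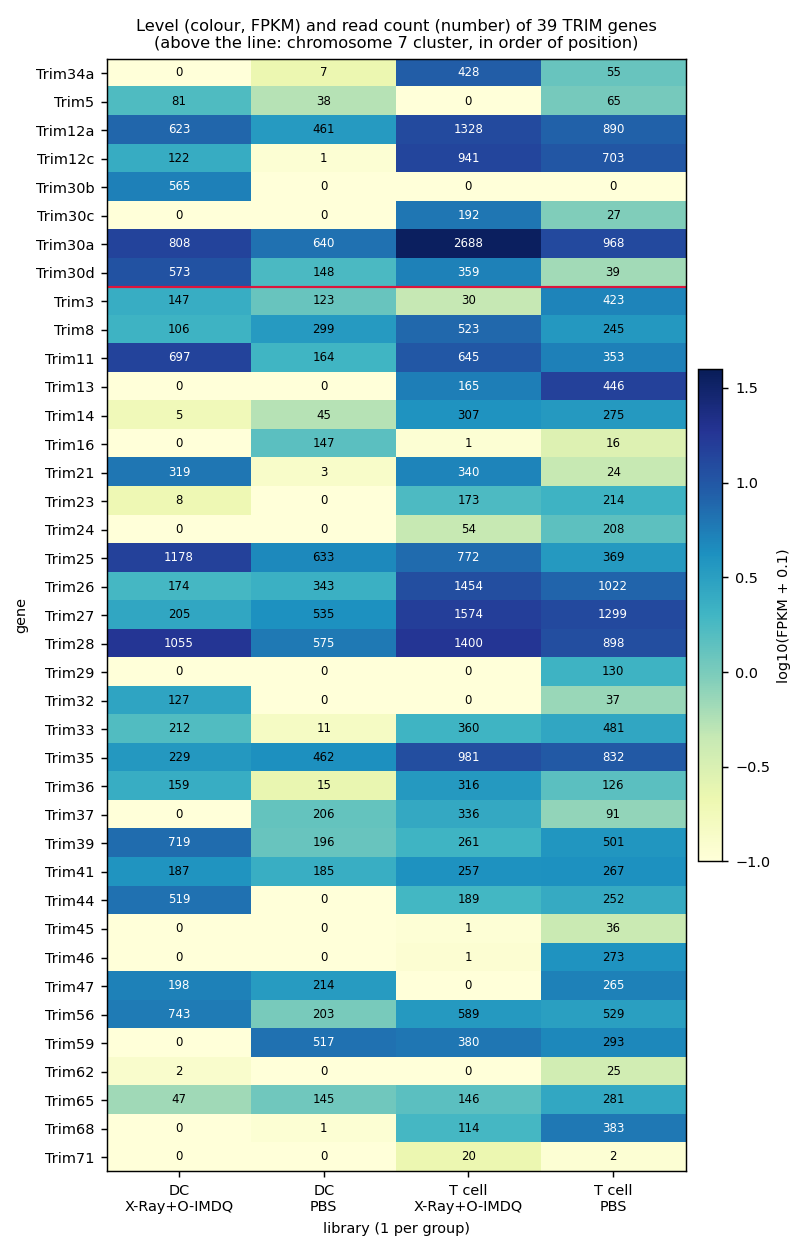
Level of each of the 39 TRIM genes in the 4 libraries, with colour showing log10(FPKM + 0.1) and the printed number the read count. Rows above the line are the chromosome 7 cluster in order of position. The DC columns hold more zeros than the T cell columns. At 0 were 12 genes in each DC library, 6 in treated T cells and 1 in PBS T cells. Of all genes with 20 counts in any library, 23.6% and 13.1% were at 0 in treated and PBS DCs. In treated and PBS T cells 13.4% and 6.97% were.

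Treated DCs were set against PBS DCs to see what the treatment changed in tumour DCs, and TRIM genes were mostly higher in the treated library. Ratios are of counts scaled with TMM (trimmed mean of M-values) within the 2 libraries, with an exact conditional binomial 95% interval that covers counting error only. A gene was measured with 20 or more counts in either library. The call of higher or lower needed a 2-fold difference and an interval that excludes no difference. Of 28 TRIM genes measured in DCs, 17 were called higher, 4 lower and 7 neither. Over all 10316 genes measured, 30.2% were called higher and 41.8% lower, 72% in all. The median log2 ratio was 1.47 over the 28 TRIM genes, and -0.36 over all genes. Where each library held 20 or more counts, 10 of 17 TRIM genes were called higher and 0 lower, against 32.9% and 26.2% of all genes, with a median of 1.16 against 0.20.

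Among the TRIM genes of RNA and DNA sensing, Trim25 (ENSMUSG00000000275), the RIG-I ligase, had 1178 counts in treated DCs and 633 in PBS DCs, a scaled level 3.28-fold higher (log2 interval 1.57 to 1.86). Trim56, which in human cells acts on the STING pathway, had 743 counts in treated DCs and 203 in PBS DCs, 6.46-fold higher. Trim21 (ENSMUSG00000030966, chr7:102207128-102214693), the cytosolic antibody receptor, had 319 counts in treated DCs and 3 in PBS DCs, with log2 ratio 7.55 (interval 5.99 to 9.84). All 3 genes were higher in the treated library, and Trim21 was near the detection limit with PBS. Trim14, which lacks a RING domain and acts with the adaptor MAVS and the sensor cGAS in human cells, went the other way. It had 5 counts in treated DCs and 45 in PBS DCs, with log2 ratio -2.35 (interval -4.04 to -1.02). Trim14 overlaps Nans on the other strand by 9852 bases, and Nans had 578 counts in treated DCs and 4972 in PBS DCs, so reads of the pair may not be separable. Of the list of 23 antiviral and interferon-linked TRIM genes, 15 were measured in DCs. Of these 10 were called higher, 1 lower and 4 neither, beside 30.2% higher and 41.8% lower of all genes. Higher calls were also frequent over the whole family, at 17 of the 28 TRIM genes measured, with 4 lower. The 8 reported genes of the chromosome 7 block, described below, are all on this list and gave 6 of the 10 higher calls. The 4 called neither were Trim8, a regulator of NF-kB signalling, Trim26, which targets IRF3, Trim27 and Trim65, which modifies the RNA sensor MDA5. Their log2 ratios were -0.68 for Trim8, -0.16 for Trim26, -0.56 for Trim27 and -0.81 for Trim65.

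Of the 4 chromatin TRIM genes, Trim28 and Trim33 were measured in DCs and both were called higher. Trim28 had 1055 counts in treated DCs and 575 in PBS DCs, 3.24-fold higher. Trim33, a regulator of SMAD4 signalling, had 212 counts in treated DCs and 11 in PBS DCs, with a log2 ratio of 5.09 and an interval from 4.22 to 6.11. Trim24 and Trim66 were at 0 in both DC libraries. Trim28 overlaps Zbtb45 on the other strand by 6137 bases, and the sources used here do not say if counting used strand. Zbtb45 had 7 counts in treated DCs and 71 in PBS DCs.

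Further genes called higher in treated DCs were Trim11 (697 counts in treated DCs and 164 in PBS DCs, 7.50-fold), Trim39 (719 and 196, 6.47-fold), Trim36 (159 and 15, 18.7-fold) and Trim3 (147 and 123, 2.11-fold). Trim36 is a microtubule-associated COS-box member, and Trim3 an NHL-repeat member. At 0 in PBS DCs were Trim44, a member without a RING domain, with 519 counts in treated DCs, and Trim32, an NHL-repeat ligase known from muscle disease, with 127. At the floor of 3 counts in the PBS library Trim44 was 305-fold and Trim32 74.7-fold higher. Their interval limits lie nearer to no difference than these folds, at log2 values of 7.95 and 5.90.

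The 4 genes called lower included Trim59, Trim37 and Trim16, which were at 0 in treated DCs. Trim59, a transmembrane member, had 517 counts in PBS DCs, 97.7-fold lower with treatment at the floor of 3 counts. Its interval limit nearer to no difference was 79.1-fold. Trim37, a ligase of centrosomes and peroxisomes, had 206 counts in PBS DCs and Trim16, which in human cells takes part in autophagy of damaged lysosomes, had 147. At the same floor they were 38.9-fold and 27.8-fold lower, with interval limits of 31.4-fold and 22.3-fold. Such losses were common in these libraries: among genes with 20 counts in PBS DCs, 16.1% were at 0 in treated DCs, and 3 of 21 TRIM genes were. In the reverse direction 4.97% of genes with 20 counts in treated DCs were at 0 in PBS DCs, and 3 of 24 TRIM genes, Trim30b, Trim44 and Trim32, were.

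**Figure D2:**
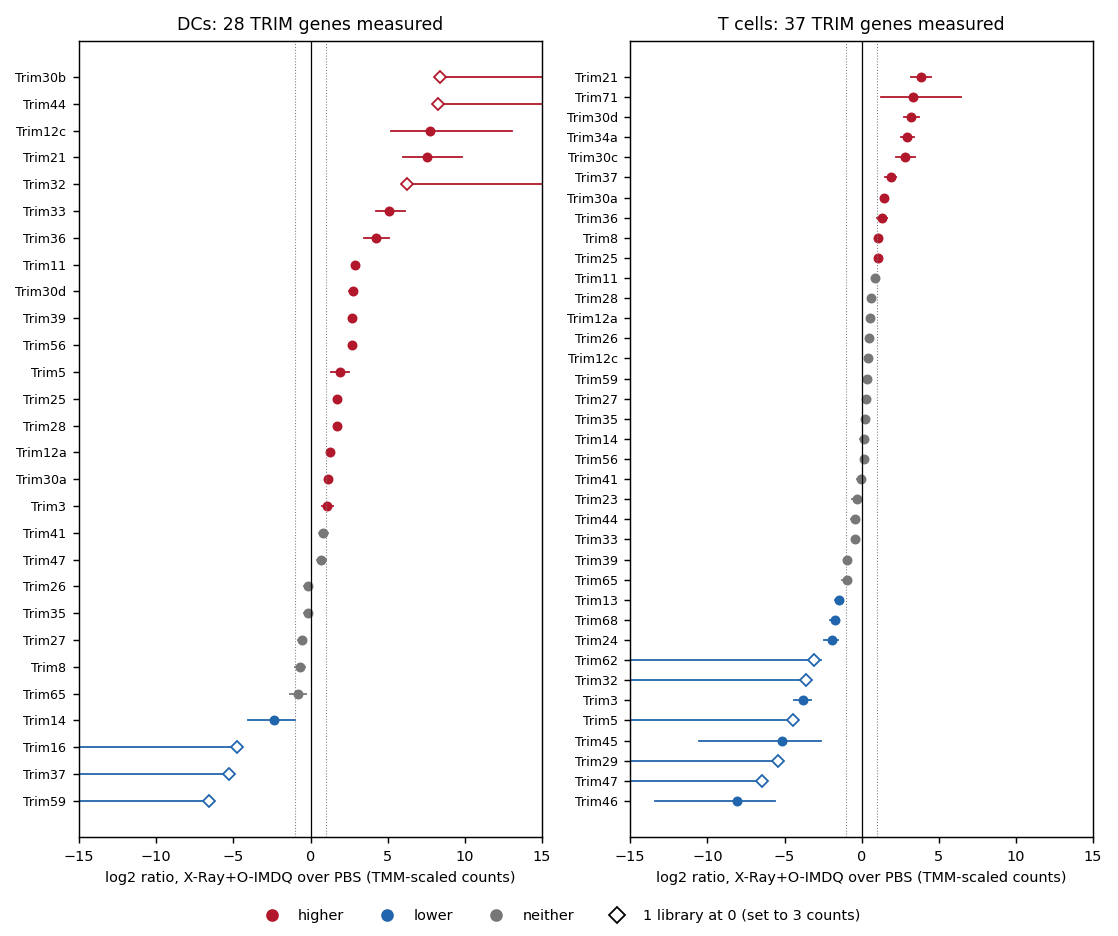
Log2 ratio of treated over PBS libraries for each TRIM gene measured in DCs (28, left) and T cells (37, right), with exact 95% intervals for counting error that run off the panel where a library was at 0. In DCs 17 genes were called higher and 4 lower; in T cells 10 were called higher and 11 lower.

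Treated T cells were set against PBS T cells with the same question for T cells, and here TRIM genes were split. Of 37 TRIM genes measured, 10 were called higher, 11 lower and 16 neither. Over all 11058 genes, 18.3% were called higher and 25.4% lower, 43.7% in all. The median log2 ratio was 0.15 over the TRIM genes and -0.07 over all genes. Of the 11 lower calls, 7 were of genes at 0 or 1 count in treated T cells. Some markers of other cell types were also at or near 0 in treated T cells and counted in PBS T cells. Adgre1 of macrophages had 0 counts in treated T cells and 334 in PBS T cells, Zbtb46 of DCs 0 and 120, Klrb1c of NK cells 0 and 140, and the keratin Krt18 0 and 89. Col1a2 of fibroblasts had 3 counts in treated T cells and 414 in PBS T cells, and Col1a1 39 and 450. Others went the other way: Xcr1 of DCs had 70 counts in treated T cells and 0 in PBS T cells, and Cd209a 219 and 7. Cd79b of B cells had 137 and 10 counts, and Eomes of the NK list 449 and 201. Over whole lists, 3 of 7 macrophage markers measured, 2 of 8 DC markers and 2 of 4 fibroblast markers were called lower in treated T cells. In these lists 0, 2 and 0 were called higher. Of 4 NK markers measured, 1 was called lower and 1 higher, and of 4 monocyte markers 1 lower and 0 higher. The 1 B cell marker measured was called higher and the 1 MC38 epithelial marker lower. Macrophage markers summed to 155 CPM in treated T cells and 182 CPM in PBS T cells, DC markers to 1716 and 1277 CPM, and fibroblast markers to 142 and 158 CPM. The part of these cells in the lower calls was not tested. With 20 counts in both libraries 4 of 29 TRIM genes were called lower, against 15.4% of all genes, and 9 were called higher, against 15.5%.

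Antiviral members were among the genes called higher in treated T cells. Trim21 had 340 counts in treated T cells and 24 in PBS T cells, 14.0-fold higher (log2 interval 3.21 to 4.47). Trim25 had 772 counts in treated T cells and 369 in PBS T cells, 2.07-fold higher, with a log2 ratio of 1.05 that fell to 0.96, under the 2-fold threshold, with upper-quartile scaling. Trim8 was likewise near the threshold, with 523 counts in treated T cells and 245 in PBS T cells, a log2 ratio of 1.08, and 0.98 with upper-quartile scaling. Of the 23 listed antiviral and interferon-linked genes, 18 were measured in T cells. Of these 7 were called higher, 3 lower and 8 neither, beside 18.3% higher and 25.4% lower of all genes. Over the whole family 10 of 37 TRIM genes were called higher and 11 lower. The chromosome 7 block gave 4 of the 7 higher and 1 of the 3 lower calls on this list. Outside that list, Trim37 had 336 counts in treated T cells and 91 in PBS T cells, 3.66-fold higher, and Trim36 had 316 and 126 counts, 2.49-fold higher. Trim71, an RNA-binding protein of embryonic stem cells, had 20 counts in treated T cells and 2 in PBS T cells, with a wide log2 interval from 1.27 to 6.45. Its log2 ratio of 3.31 was 0.90 on the log2(CPM + 1) scale, under the 2-fold threshold.

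Among the genes called lower in treated T cells, Trim13 had 165 counts in treated T cells and 446 in PBS T cells, a log2 ratio of -1.45. Trim24, a chromatin member and ligase of p53, had 54 counts in treated T cells and 208 in PBS T cells, a log2 ratio of -1.96. Trim68 had 114 counts in treated T cells and 383 in PBS T cells, a log2 ratio of -1.76, and Trim3 had 30 and 423 counts, a log2 ratio of -3.83. These 4 genes kept 20 or more counts in both T cell libraries. The other 7 were at 0 or 1 count in treated T cells. Trim46, a microtubule-bundling protein of neurons, had 1 count in treated T cells and 273 in PBS T cells, with a log2 interval from -13.4 to -5.62, and Trim45 had 1 and 36 counts. Trim47 had 0 counts in treated T cells and 265 in PBS T cells, 89.1-fold lower at the floor, with an interval limit of 72.0-fold. Trim29, Trim5, Trim32 and Trim62 were also at 0 in treated T cells, with 130, 65, 37 and 25 counts in PBS T cells. Among all genes with 20 counts in PBS T cells, 8.40% were at 0 in treated T cells, and 5 of 36 TRIM genes were. Trim47 and Trim65 overlap by 5365 bases on the same strand, and Trim65 had 146 counts in treated T cells and 281 in PBS T cells. Reads of the overlap cannot be assigned with certainty.

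The 16 genes called neither in T cells held several of the most abundant members. Trim28 had 1400 counts in treated T cells and 898 in PBS T cells, a log2 ratio of 0.63. Trim27 had 1574 and 1299 counts and a log2 ratio of 0.26, and Trim35 had 981 and 832 counts and a log2 ratio of 0.22. Trim26 had 1454 and 1022 counts, with a ratio of 0.50. Trim56 had 589 counts in treated T cells and 529 in PBS T cells, with log2 ratio 0.14 (interval -0.03 to 0.31). Trim33 and Trim44 had log2 ratios of -0.43 each, Trim23, a member with an ARF domain, -0.32, and Trim39 and Trim65 -0.95 and -0.96. The other 6, Trim11, Trim12a, Trim12c, Trim14, Trim41 and Trim59, lay between -0.07 and 0.86.

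Set side by side, 26 TRIM genes were measured in both cell types, 2 in DCs alone (Trim16 and Trim30b) and 11 in T cells alone. Called in both were 9 genes. Trim21, Trim25, Trim30a, Trim30d and Trim36 were higher with treatment in both cell types, and 0 were lower in both. Of all 9388 genes measured in both cell types, 5.41% were called higher in both and 9.35% lower in both. The other 4, Trim3, Trim5, Trim32 and Trim37, were called in opposite directions, as were 48.9% of the 2713 genes called in both. The sizes also differed within the first group: Trim21 had log2 ratios of 7.55 in DCs and 3.81 in T cells, Trim30d 2.77 and 3.19, and Trim30a 1.16 and 1.46. The difference between cell types was not tested, since there is 1 library per group.

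**Figure D3:**
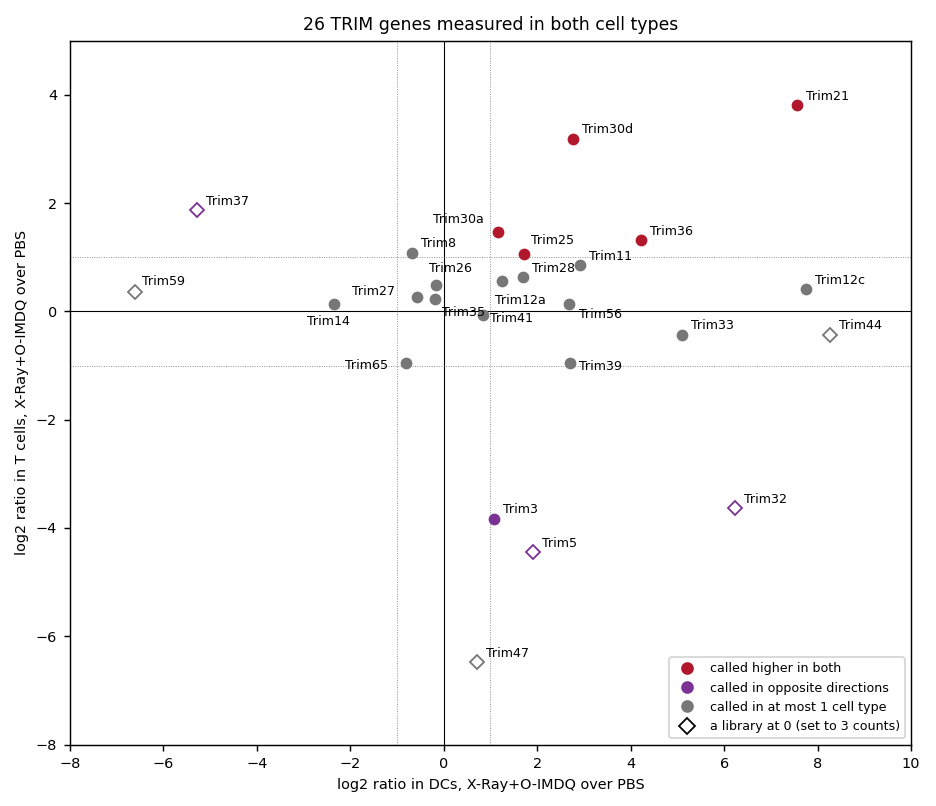
Log2 ratio of treated over PBS libraries in DCs (horizontal axis) and T cells (vertical axis) for the 26 TRIM genes measured in both, with dotted lines at 2-fold. The 5 genes called higher in both cell types lie at the upper right, and 4 genes called in opposite directions lie at the upper left and lower right.

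Of the 39 genes, 12 are on chromosome 7, and 8 of these form the block of Trim34a, Trim5, Trim12a, Trim12c, Trim30b, Trim30c, Trim30a and Trim30d at chr7:103893664-104157056 of the deposited tables, a span of 263 kb, for which the submitters' processing notes name build GRCm39. Trim6 and Trim34b of the same block had at most 2 and 5 counts in any library. The 8 reported block genes are also on the list of antiviral and interferon-linked genes, so the block counts overlap with those of that list. In DCs 6 of the block were measured and all 6 were called higher, beside 30.2% of all genes. In T cells 7 were measured, of which 4 were called higher, 1 lower and 2 neither, beside 18.3% higher and 25.4% lower of all genes. The members listed for the block together took 198 CPM in treated DCs and 54.4 CPM in PBS DCs, and 321 CPM in treated T cells and 147 CPM in PBS T cells.

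Within the block, Trim30a (ENSMUSG00000030921) had 808 counts in treated DCs and 640 in PBS DCs, and 2688 in treated T cells and 968 in PBS T cells, 2.23-fold higher in DCs and 2.75-fold higher in T cells. Trim30d, its neighbour, had 573 counts in treated DCs and 148 in PBS DCs, and 359 in treated T cells and 39 in PBS T cells, 6.83-fold and 9.12-fold higher. Both genes were higher with treatment in both cell types. Their relatives Trim30b and Trim30c were each seen in 1 cell type alone. Trim30b had 565 counts in treated DCs and 0 in PBS DCs, 332-fold higher at the floor, with an interval limit of 269-fold. It had 0 counts in both T cell libraries. Trim30c had 192 counts in treated T cells and 27 in PBS T cells, 7.05-fold higher, and 0 in both DC libraries.

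Trim34a, a paralogue of Trim5, had 428 counts in treated T cells and 55 in PBS T cells, 7.71-fold higher, and 0 and 7 counts in treated and PBS DCs. Trim12a had 623 counts in treated DCs and 461 in PBS DCs, 2.38-fold higher, and 1328 in treated T cells and 890 in PBS T cells, a log2 ratio of 0.56. Trim12c, whose mouse protein promotes interferon and NF-kB signalling, had 122 counts in treated DCs and 1 in PBS DCs, with log2 ratio 7.75 (interval 5.24 to 13.1). In T cells it had 941 counts with treatment and 703 with PBS, a log2 ratio of 0.41. Trim5 was weakly counted, with 81 counts in treated DCs and 38 in PBS DCs, and 0 in treated T cells and 65 in PBS T cells. The block's genes were thus high in different libraries, with Trim12a, Trim30a and Trim30d the members at 20 or more counts in all 4.

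The block's genes are copies of each other, and counts could pass between them. In GENCODE M21 transcripts, 21.0% of the 100-base windows of Trim34a also occur in another gene, most often Trim34b. The share was 11.7% for Trim5 (most with Trim12c), 8.05% for Trim12c, 4.57% for Trim30d, 4.41% for Trim30a (with Trim30d) and 2.87% for Trim12a. Trim30b and Trim30c shared 0 such windows. The sources used here do not say how reads matching several genes were assigned.

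**Figure D4:**
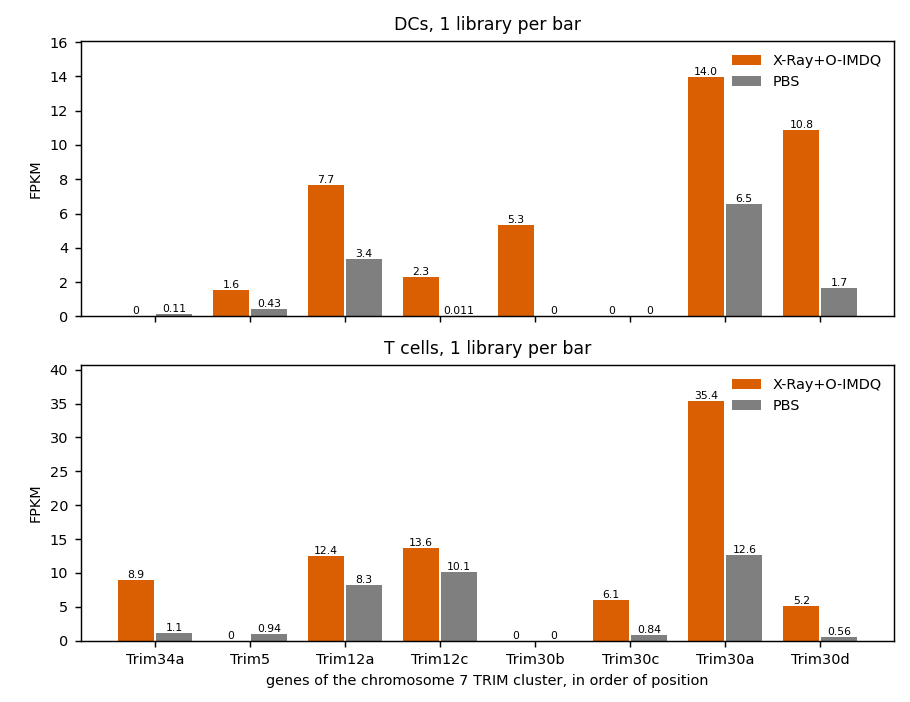
Deposited FPKM of the 8 chromosome 7 cluster genes in order of position, with treated libraries left of PBS libraries and each bar 1 library. Trim30a is the highest of the 8 in all 4 libraries; Trim30b shows only in treated DCs and Trim30c only in T cells.

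Since the block's genes and Trim21 are known interferon targets, their promoter windows were searched on both strands for GAAA, any 2 bases and GAAA again, the core of the interferon-stimulated response element. The windows are RefSeq sequences of build GRCm38.p6 from 250 bases before to 50 after a gene start, and 29 of the 39 genes have one in the table used. The letters were found in 8 of these 29 genes, and in 3.99% of all 27025 genes with a window (3.44% of all windows). In the chromosome 7 block they were found in 6 of 8 genes, and outside it in 2 of 21, Trim21 and Trim26. Stretches of 30 bases around the match are printed because they show how alike the copies are. Capitals mark this motif or its reverse complement (TTTC, any 2 bases, TTTC), and in Trim21 and Trim26 the union of 2 overlapping matches.
Trim21 (chr7:102565447-102565476, minus strand): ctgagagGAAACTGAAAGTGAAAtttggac
Trim34a (chr7:104244457-104244486, plus strand): tggtttggagTTTCAGTTTCttttctctgc
Trim5 (chr7:104288136-104288165, minus strand): agagttgtggTTTCTGTTTCatttccagag
Trim12a (chr7:104315466-104315495, minus strand): agagttgtggTTTCTGTTTCatttccagag
Trim12c (chr7:104353359-104353388, minus strand): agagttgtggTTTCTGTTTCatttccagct
Trim30a (chr7:104465210-104465239, minus strand): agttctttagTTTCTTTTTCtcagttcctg
Trim30a, second start (chr7:104446104-104446133, minus strand): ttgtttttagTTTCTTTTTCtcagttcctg
Trim30d (chr7:104507871-104507900, minus strand): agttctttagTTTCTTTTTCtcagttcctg
Trim26 (chr17:36836979-36837008, plus strand): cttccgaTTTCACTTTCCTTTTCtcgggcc

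The 30 bases printed for Trim5 and Trim12a are the same, and so are those of Trim30d and 1 of the 2 starts of Trim30a. The window of the other Trim30a start differs from these. Of the 8 genes, 7 were measured in DCs, where 6 were called higher and Trim26 was not called, and all 8 in T cells, where Trim21, Trim30a, Trim30d and Trim34a were called higher, Trim5 lower and 3 neither. The median log2 ratio of these genes was 1.91 in DCs and 1.01 in T cells. Genes whose window lacks the letters had a median of 1.71 over 12 genes in DCs, 7 of them called higher, and of -0.37 over 20 genes in T cells, 4 of them called higher. Trim25, Trim30b and Trim30c are among those without the letters in this window. The same windows were also searched for TTC, any 3 bases and GAA. This second motif was found in 3 of the 29 TRIM genes, Trim30c, Trim45 and Trim46, and in 9.55% of all 27025 genes with a window. A match is a description of the letters and not a bound site.

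DCs were also set against T cells under each treatment, and the 2 libraries of each pair were scaled together. Among treated libraries, 34 TRIM genes were measured, of which 11 were called higher in DCs, 15 lower and 8 neither, beside 31.1% and 43.4% of all genes, 74.4% called in all. Among PBS libraries, 37 were measured, of which 3 were called higher in DCs, 22 lower and 12 neither, beside 25.6% and 34.8% of all genes, 60.3% called in all. The median log2 ratio was -0.32 in treated libraries, against -0.43 over all genes. It was -1.40 in PBS libraries, against -0.17 over all genes. With 20 counts in both PBS libraries, 2 of 20 TRIM genes were called higher and 6 lower, against 22.9% and 24.7% of all genes. The median was -0.64, against -0.006 over all genes. With 20 counts in both treated libraries, 7 of 20 TRIM genes were called higher and 5 lower, against 33.9% and 26.7% of all genes. With total-count scaling the PBS split was 2 higher and 27 lower, beside 19.1% and 43.8% of all genes. These comparisons share libraries with the treatment comparisons above, so they add no independent values. Of the 10 DC markers, 7 were called higher in PBS DCs than in PBS T cells, 2 neither and 1 lower, Zbtb46. Among treated libraries 8 of 9 DC markers measured were called higher in DCs and 1 lower. All 8 macrophage markers were called higher in DCs in both pairs. The part of other cell types in the DC over T cell ratios was not tested.

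In PBS libraries the genes called higher in DCs were Trim16, Trim30d and Trim37. By library total Trim37 had 8.66 CPM in PBS DCs and 4.88 CPM in PBS T cells, under 2-fold. Trim30d had 148 counts in PBS DCs and 39 in PBS T cells, 4.29-fold higher. Trim16 had 147 counts in PBS DCs and 16 in PBS T cells, 10.4-fold higher. At 0 in PBS DCs were 10 of the 36 TRIM genes with 20 counts in PBS T cells, where 10.8% of all such genes were. In the reverse direction 0 of 21 TRIM genes were at 0 in PBS T cells, beside 5.39% of all genes. Among treated libraries the genes called higher in DCs included Trim25, with 1178 counts in treated DCs and 772 in treated T cells, 3.14-fold higher, and Trim30d, 3.28-fold higher. Trim56 was 2.59-fold, Trim11 2.22-fold and Trim39 5.66-fold higher in treated DCs than in treated T cells. These folds depend on TMM scaling. By library total Trim56 had 52.9 CPM in treated DCs and 31.9 CPM in treated T cells, and Trim11 49.6 and 34.9 CPM, both under 2-fold. In PBS libraries Trim56 and Trim39 had log2 ratios of -1.21 and -1.18, both called lower in DCs. Trim26 and Trim27 were called lower in DCs under both treatments. Trim26 had 174 counts in treated DCs and 1454 in treated T cells, a log2 ratio of -2.02, and 343 in PBS DCs and 1022 in PBS T cells, a log2 ratio of -1.40. Trim13, Trim14, Trim23, Trim24, Trim30c, Trim34a, Trim68 and Trim12c were likewise called lower in DCs under both treatments.

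**Figure D5:**
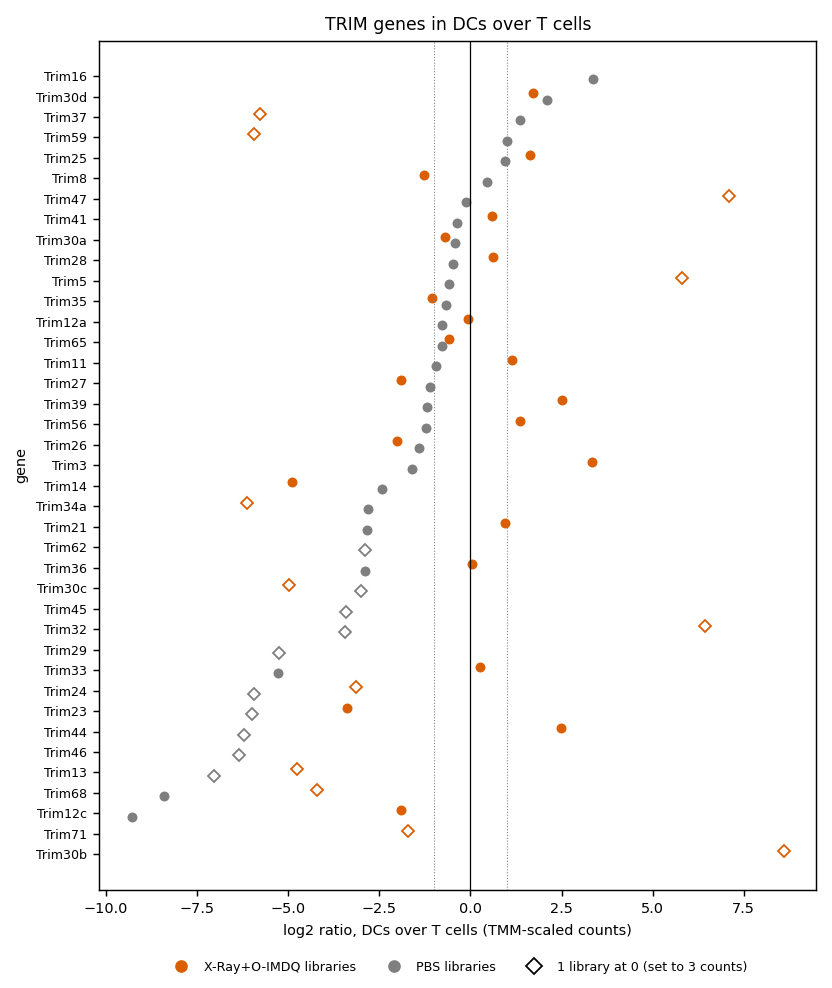
Log2 ratio of DCs over T cells for each TRIM gene measured, in treated libraries (orange) and PBS libraries (grey), with dotted lines at 2-fold and open diamonds where a library was at 0. In treated libraries 15 genes were called lower in DCs and 11 higher; in PBS libraries 22 were called lower and 3 higher.

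Genes that work with TRIM proteins were read from lists. Of 19 genes of the RIG-I pathway, which TRIM25 acts on, 9 of 19 measured were called higher and 2 lower in treated against PBS DCs, and 10 of 18 measured higher and 1 lower in treated against PBS T cells. Over all genes the shares were 30.2% higher and 41.8% lower in DCs, and 18.3% and 25.4% in T cells. Ddx58, which encodes RIG-I, had 594 counts in treated DCs and 279 in PBS DCs, a log2 ratio of 1.91, and 1092 in treated T cells and 393 in PBS T cells, a log2 ratio of 1.46. Rnf135, the ligase that modifies RIG-I together with TRIM25, had log2 ratios of 1.92 in DCs and 2.33 in T cells. Mavs, the adaptor downstream of RIG-I, had log2 ratios of -0.10 in DCs and 3.16 in T cells. Map3k7, the kinase TAK1, was called lower in both, with log2 ratios of -2.54 in DCs and -2.29 in T cells.

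Of 13 genes that act with TRIM28 in repression, 5 were called higher and 5 lower in treated DCs, and 0 higher and 1 lower in treated T cells; the DC counts lie near the all-gene shares of 30.2% and 41.8%, and those of T cells stand beside 18.3% and 25.4%. Setdb1, the histone methyltransferase that TRIM28 recruits, had log2 ratios of 1.89 in DCs and -0.17 in T cells, and Cbx5, which encodes HP1 alpha, had ratios of -3.68 and -1.96. Of 18 genes of the ubiquitin machinery, 6 of 17 measured were called higher and 6 lower in DCs, and 4 of 18 higher and 3 lower in T cells, beside the same all-gene shares. Ube2n, the enzyme that makes K63-linked chains, had log2 ratios of -1.86 in DCs and 0.59 in T cells. Of 10 TRIM proteins with other symbols, 3 were measured in DCs, of which 1 was called higher, 1 lower and 1 neither. In T cells 5 were measured, of which 1 was called higher and 4 lower, beside the same all-gene shares. The 4 lower were Bspry, Mid1, Mid2 and Cmya5. Pml, the organiser of nuclear bodies, had 18 counts in treated DCs and 124 in PBS DCs, a log2 ratio of -1.97. In T cells it had 652 counts with treatment and 298 with PBS, a log2 ratio of 1.12. Mefv, which encodes pyrin, had 671 counts in treated DCs and 30 in PBS DCs, a log2 ratio of 5.30, and 0 in both T cell libraries.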

How the data were processed

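RNA-seq was made from 4 libraries, 1 per group; BGI prepared and sequenced them, per the labels' protocols. The authors deposited whole-number read counts per gene and FPKM, 1 table per cell type. The FPKM values deposited by the authors equal the count scaled by the listed gene length and column total (largest relative difference 2.04e-07). Per the submitters' processing notes, the tools were R 3.3.1, DESeq2 1.24.0, RSEM 1.2.12 and HISAT2 2.0.4 and the build GRCm39, with no role for each. Each column was assigned through the read names in the sample descriptions, although the titles call the PBS samples rep2; 4 columns (2 PBS-type libraries, numbered 2) match no read name and were not used here. The 51 genes without a symbol entered library totals but no comparison.

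Counts of each pair were scaled with TMM (edgeR 4.0.16, R 4.3.3), and ratios were given exact Clopper-Pearson 95% intervals (scipy 1.17.1). Without molecular identifiers, PCR copies are not separate molecules, so intervals and floors cover counting error only. A library at 0 was set to 3 counts. The ratio, interval and call steps were tested on simulated counts that held counting error only, with the true scaling supplied. That simulation does not cover TMM scaling, variation between replicates or the floor for a library at 0. The 12 alternatives were other scalings (total count, upper quartile, deposited FPKM, size factors of DESeq2 1.42.0), centring on all genes or within bins of gene length, minimum counts of 1, 100, or 20 in both libraries, log2(CPM + 1), and 1.5-fold and 4-fold thresholds. The members and lists were chosen with earlier results of these data known. Genes described singly were the 8 highest by FPKM per library, the 10 highest and 10 lowest by interval bound in each treatment comparison, those called in opposite directions, and those of the antiviral, chromatin and chromosome 7 lists.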

Additional observations from a re-analysis of the deposited data

Results flagged for a closer look

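The 4 TRIM genes below are singled out because they were called in opposite directions in the 2 cell types, and the difference between cell types was not tested. Such calls were common: they are 4 of the 9 TRIM genes called in both cell types, beside 48.9% of all 2713 genes called in both. Trim37 had a log2 ratio of treated over PBS of -5.28 in DCs, at 0 counts in the treated library, and of 1.87 in T cells. Trim3 had log2 ratios of 1.08 in DCs and -3.83 in T cells. Trim32 had log2 ratios of 6.22 in DCs, at 0 counts in the PBS library, and -3.64 in T cells, at 0 counts in the treated library. Trim5 had log2 ratios of 1.91 in DCs and -4.45 in T cells, at 0 counts in the treated library. Of these genes, Trim3 alone kept 20 or more counts in all 4 libraries. Under log2(CPM + 1) the ratio of Trim3 in DCs was 0.95, under the 2-fold threshold.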

How the results depend on the processing

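All 17 higher and 4 lower calls in DCs, and 8 of 10 higher and all 11 lower calls in T cells, held under the other scalings and centrings, of which deposited FPKM gives the same ratios as total count by construction and adds nothing; Trim25 and Trim8 in T cells did not under upper-quartile scaling. On the log2(CPM + 1) scale the higher calls of Trim3 in DCs (0.95) and Trim71 in T cells (0.90) were lost. No call in these treatment comparisons turned to the opposite one under any of the 12 alternatives. Requiring 20 counts in both libraries moved most counts: to 10 higher and 0 lower in treated over PBS DCs, 4 lower in treated over PBS T cells, 6 lower with a median of -0.64 in PBS DCs over T cells, and 7 higher and 5 lower in treated DCs over T cells. A 4-fold threshold left 11 higher in DCs, 5 higher in T cells and 7 higher in treated DCs over T cells. A minimum of 100 counts left 7 lower in T cells. In PBS DCs over T cells 5 were higher with DESeq2 size factors, with centring on all genes or at 1.5-fold. The median in treated DCs over T cells changed sign, to 0.10 and 0.09 with centring on all genes and within bins of gene length, 0.43 with 20 counts in both libraries, and 0.45 with a minimum of 1 count. Fewer genes enter under stricter minimums by construction; other causes were not tested. No paired analysis was possible because each group has 1 library. Depth limits genes near 0: 3 counts are 0.213 CPM in treated DCs and 0.126 CPM in PBS DCs.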
